A study of Mus musculus with 12 samples.

Results

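Ribosome assembly factors are proteins that join the nascent ribosome for a time and leave it again. They modify and cut the precursor rRNA in the nucleolus, fold it onto ribosomal proteins and release the subunits for export to the cytoplasm. In liver, as in other tissues, their genes are expressed in all cells that make ribosomes, at levels that follow the demand for new ribosomes. METTL5, the methyltransferase that was removed here, places N6-methyladenosine on 18S rRNA, the RNA of the small subunit that this pathway builds.

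The genes described here are 10 assembly factors chosen by name: Nop56, Nop58, Ncl, Npm1, Dkc1, Pes1, Bop1, Wdr12, Rrs1 and Rrp12. All 10 were found among the 10607 genes of the table of translational efficiency (TE), and all 10 passed the filter on low values described with the tests. The rule that picks them is the list of names alone. Nop56 and Nop58 are paired core proteins of the box C/D small nucleolar ribonucleoproteins (snoRNPs), which guide ribose methylation of rRNA, and Dkc1 (dyskerin) is the pseudouridine synthase of the H/ACA snoRNPs. Ncl (nucleolin) and Npm1 (nucleophosmin) are abundant nucleolar RNA-binding proteins and chaperones. Pes1, Bop1 and Wdr12 form the PeBoW complex of the large subunit precursor. Rrs1 helps to build the 5S RNP into the large subunit, and Rrp12 takes part in the export of both precursors and in maturation of the small subunit.

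Ribosome profiling was done on the livers of 6 mice from 3 litters, each of which gave 1 wild-type (WT) animal and 1 Mettl5 knockout (KO) animal. Every liver was sequenced as input and as ribosome-protected fragments (RPF). Input is RNA of the same lysate, sequenced to measure transcripts, and RPF are the pieces of transcript that ribosomes shield from nuclease. Both were depleted of rRNA, and TE is RPF relative to input. The KO carried a deletion of Mettl5 exon 2, made from a floxed allele in every tissue with a CMV-Cre transgene (B6.C-Tg(CMV-cre)1Cgn/J). The founder stem cells were a C57bl/6 x 129S6 hybrid and the line was backcrossed to B6. All 12 libraries shared cycloheximide in the lysis buffer, which holds ribosomes on transcripts, and neither the sex nor the age of the mice entered the fits. Since the deletion was present in the whole body from early development, the libraries show livers that grew without METTL5, not an acute loss.

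Mettl5 itself was low in the libraries labelled KO. Its RPF values were 58.4, 47.8 and 53.1 normalized reads in WT mice 1, 2 and 3 and 8.34, 5.53 and 9.56 in KO mice 1, 2 and 3 (log2 difference -2.64, SE 0.36, limma adjusted p = 0.00504). Its input values were 38.5, 28.2 and 15.7 in WT and 8.55, 9.30 and 8 in KO, without overlap, as in 9.25% of the 8994 genes tested in the table. Mettl5 did not pass in input (log2 difference -1.59, SE 0.46, edgeR adjusted p = 0.999) or in TE (-1.16, SE 0.51, limma adjusted p = 0.998). Input libraries held 8326325 to 11825643 counted read pairs, of which 2398804 to 5121304 lay in the genes of the TE table, and RPF libraries held 4623826 to 9184242 reads in that table. The liver label was checked with hepatocyte markers, of which 7 of 7 had reads in all 6 input libraries, with 68389 to 84810 reads per 1000000 reads of the table in WT and 70308 to 86189 in KO. The summed levels of 7 further marker lists, for Kupffer, endothelial, stellate, biliary, lymphoid, erythroid and cycling cells, also overlapped between the genotypes. For cycling cells, in which ribosome production is usually high, the sums were 12.1 to 29.3 in WT and 15.6 to 18 in KO, and 2 of 7 markers had reads in every library.

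The first question was whether the transcripts of the assembly factors differed between genotypes. None of the 10 passed an adjusted p of 0.05 in input by edgeR's quasi-likelihood test, in which 0 of 10057 genes passed (0%). At an unadjusted p under 0.05, 1 of the 10 was found, Nop58, against 348 genes or 3.46% of all genes tested, and DESeq2 found 0 of the 10, against 0.99%. With the litter as a block, 0 of the 10 passed against 0.0199% of all genes, and in DESeq2 0 passed against 0.00418%. The 95% intervals of the fold differences spanned no change for 9 of the 10 genes and over all 10 ran from 0.498 to 2.25. In whole liver, fewer cells of a type and less RNA per cell cannot be told apart. The median log2 difference of the 10 genes was 0.04, with 6 of 10 above the median of all genes tested, which was close to 0. Its sign was not stable, since leaving out KO mouse 2, KO mouse 3 or WT mouse 1 gave -0.0045, -0.0271 and -0.0193, and leaving out WT mouse 3 gave 0.0765.

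In RPF, 0 of the 10 passed in limma's test on log2(value + 1), against 44 of 8994 genes or 0.489% of all genes tested, and edgeR on reads recovered from that table also passed 0 of the 10, against 0.734%. At an unadjusted p under 0.05 the count was 1 of 10, Npm1, against 13.4% of all genes. The median log2 difference was 0.12 for the 10 genes and -0.03 for all genes, and 7 of 10 lay above the latter. Within litters 1, 2 and 3 the median RPF difference of the 10 genes was 0.30, 0.10 and 0.08. Without WT mouse 3 the median was 0.27, the highest value when each mouse was left out in turn, and the lowest was 0.02.

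In TE, 0 of the 10 passed in limma and 0 in edgeR on whole reads, where 0 of 8994 genes passed (0%) in either. At an unadjusted p under 0.05, 0 of the 10 were found, against 423 genes or 4.7% of all genes. The median log2 difference in TE was 0.16 for the 10 genes, with 8 of 10 above the median of all genes of -0.01. It was 0.0644 without WT mouse 2, the lowest value when each mouse was left out. Only Nop58, Ncl, Npm1, Bop1 and Rrp12 reach a mean of 50 in both assays. Over these the median was 0.34, which is the value of Nop58. By litter the median of all 10 genes was 0.37, 0.10 and 0.00038, so its size came from litter 1 more than from litter 3. The 95% intervals of the fold difference in TE spanned no change for 10 of 10 genes and ran from 0.479 to 2.13. The plot of fitted differences shows that the intervals of the 10 genes are wide beside the distance between the medians.

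**Figure D1:**
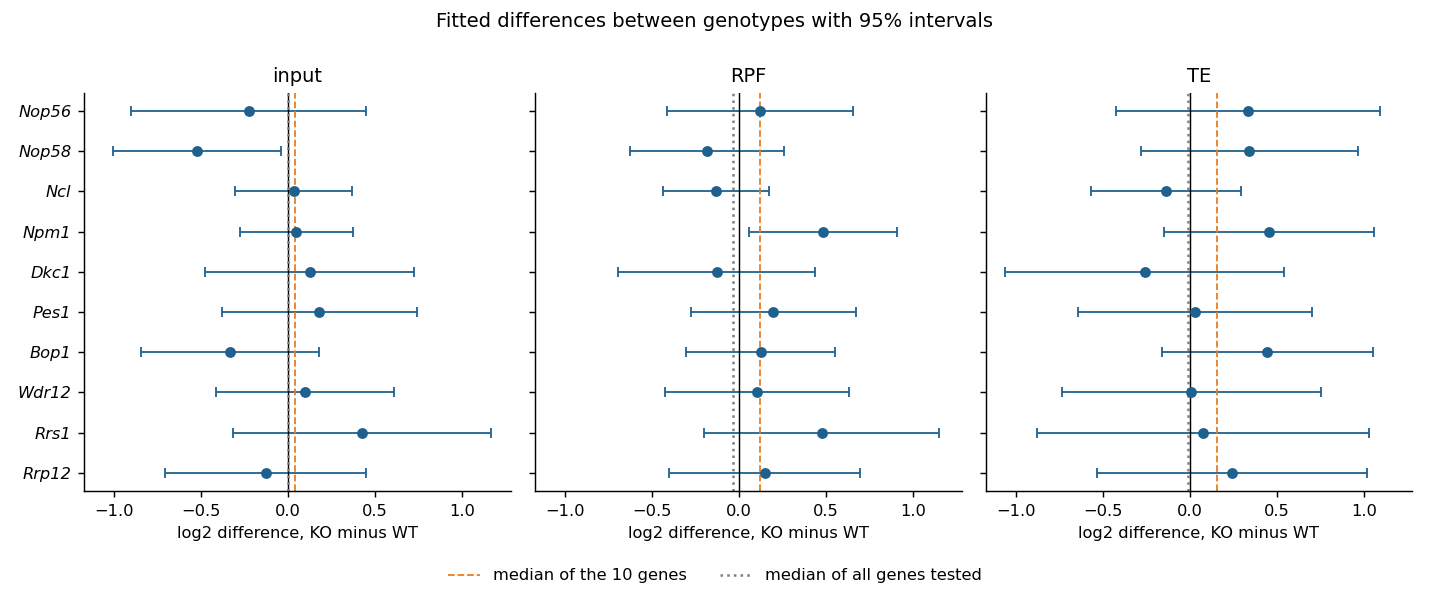
Fitted log2 differences between KO and WT (x axis, with 95% intervals) of the 10 assembly factors in input (edgeR), RPF and TE (both limma), with the median of the 10 genes as a dashed line and that of all genes tested as a dotted line. Only Nop58 in input and Npm1 in RPF have intervals that leave out 0, and neither passed an adjusted p of 0.05.

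The box C/D proteins Nop56 and Nop58 work side by side on each guide RNA and are close relatives. Nop56 (ENSMUSG00000027405) lies on the + strand at chr2:130274430-130279313 of mm10, and Nop58 (ENSMUSG00000026020) on the + strand at chr1:59684971-59719044. Nop58 had input values of 69.7, 83.1 and 66.9 normalized reads in WT mice 1 to 3 and 44.1, 53.2 and 54.4 in KO mice 1 to 3. All 3 KO mice lay below all 3 WT mice, and every KO mouse lay below its littermate. The means were 73.2 ± 8.65 and 50.5 ± 5.63 (SD, n = 3). The log2 difference was -0.52 (SE 0.23, edgeR adjusted p = 0.999), or 0.696-fold with a 95% interval from 0.498 to 0.972. Nop58 was the 1 gene of the 10 without overlap between genotypes in input, where 9.25% of all 8994 genes of the filtered table had no overlap and 5.6% had all KO mice below all WT mice.

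The RPF of Nop58 did not share this separation. Its RPF values were 147, 225 and 188 in WT and 141, 136 and 222 in KO, and the ranges overlapped almost fully. The log2 difference in RPF was -0.18 (SE 0.21, limma adjusted p = 0.753) and was 0.09 once the trend with base composition was removed. RPF over input was 2.11, 2.71 and 2.82 in WT and 3.20, 2.56 and 4.08 in KO, with a log2 difference in TE of 0.34 (SE 0.30, limma adjusted p = 0.998).

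Nop56 had input values of 36.7, 58.0 and 31.5 in WT and 31.6, 27.9 and 48.0 in KO, resting on 20 to 48 reads per library. The order of the genotypes turned between litters, with KO below WT in litters 1 and 2 and above it in litter 3. In RPF, Nop56 had 92.4, 89.6 and 120.2 in WT and 100.1, 97.1 and 132 in KO, and the KO mouse was higher in 3 of 3 litters by 0.11, 0.12 and 0.13 on the log2 scale. The ranges of the genotypes overlapped, since the litters differed more than the littermates, and the log2 difference was 0.12 (SE 0.26, limma adjusted p = 0.879, and 0.819 with the litter as a block and the base composition trend removed). The TE difference was 0.34 (SE 0.36, limma adjusted p = 0.998).

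Per length of coding sequence, Nop58 carried more footprints than its partner. The ratio of Nop58 to Nop56 in RPF reads per kb of coding sequence was 1.51 to 2.72 in the 6 mice and above 1 in 6 of 6, with 2.05 ± 0.584 in WT and 1.62 ± 0.173 in KO (SD, n = 3). These ranges of the genotypes overlapped. In input per kb of coding sequence the ratio was similar, at 1.23 to 2.30 and above 1 in 6 of 6 mice. In input per kb of exon it was 0.432 to 0.810 and above 1 in 0 of 6. Nop56 shares 41.2% of its coding windows with other places of the genome, as described further on, and Nop58 0.443%, and the part of these copies in these ratios was not tested.

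Dkc1 (ENSMUSG00000031403, + strand, chrX:75095854-75109777), the catalytic subunit of the H/ACA snoRNPs and a part of telomerase, had input values of 33.0, 59.6 and 35.4 in WT and 48.7, 43.9 and 43.2 in KO. The 3 KO mice lay between the WT mice. Its RPF values were 58.4, 38.4 and 59.3 in WT and 54.9, 53.5 and 34.4 in KO, again with overlap and with 1 low mouse in each genotype. The log2 differences were 0.12 in input (SE 0.28), -0.13 in RPF (SE 0.27) and -0.26 in TE (SE 0.38, limma adjusted p = 0.998). Leaving out WT mouse 1, 2 or 3 gave TE differences of -0.01, -0.72 and -0.05, and leaving out KO mouse 3 gave -0.08. The TE of KO against WT was higher in litter 2 and lower in litters 1 and 3.

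Ncl and Npm1, the most abundant of the 10 in input, differed from each other in how input and RPF related. Ncl (ENSMUSG00000026234, - strand, chr1:86344719-86359400) had RPF values of 817, 840.4 and 813 in WT and 771, 779 and 706 in KO. All KO mice lay below all WT mice, with means of 824 ± 14.6 and 752 ± 40.02 (SD, n = 3). The log2 difference was -0.13 (SE 0.15, limma adjusted p = 0.744), or 0.913-fold with a 95% interval from 0.738 to 1.13, and it was 0.06 with the base composition trend removed. Ncl was the 1 gene of the 10 without overlap in RPF, where 19.8% of all 8994 genes had no overlap and 12.9% had KO below WT. In input Ncl had 385, 403 and 468 in WT and 332, 468 and 472 in KO, with full overlap and a log2 difference of 0.03 (SE 0.16).

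Npm1 (ENSMUSG00000057113, - strand, chr11:33152287-33163206) had even input values, 231, 194 and 249 in WT and 234, 223 and 227 in KO. Its RPF values were 41.0, 50.3 and 35.6 in WT and 81.3, 53.5 and 46.8 in KO. The KO mouse was higher than its littermate in 3 of 3 litters, and the ranges overlapped because WT mouse 2 lay above KO mouse 3. The means were 42.3 ± 7.47 and 60.5 ± 18.3 (SD, n = 3). The log2 difference was 0.48 (SE 0.20, limma adjusted p = 0.311), or 1.4-fold with a 95% interval from 1.04 to 1.88.

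The size of the Npm1 difference depended on 1 mouse and on base composition. By litter it was 0.97, 0.09 and 0.39 on the log2 scale, and without KO mouse 1 the fitted value was 0.25 (limma adjusted p = 0.542). With the trend of RPF on the GC content of the coding sequence removed it was 0.73 (limma adjusted p = 0.165, and 0.0819 with the litter as a block as well), and the adjusted p over all alternatives was 0.0819 to 0.549. The log2 TE difference of Npm1, 0.45 (SE 0.29, limma adjusted p = 0.998), was 0.24 without KO mouse 1 and 0.69 without WT mouse 2.

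**Figure D2:**
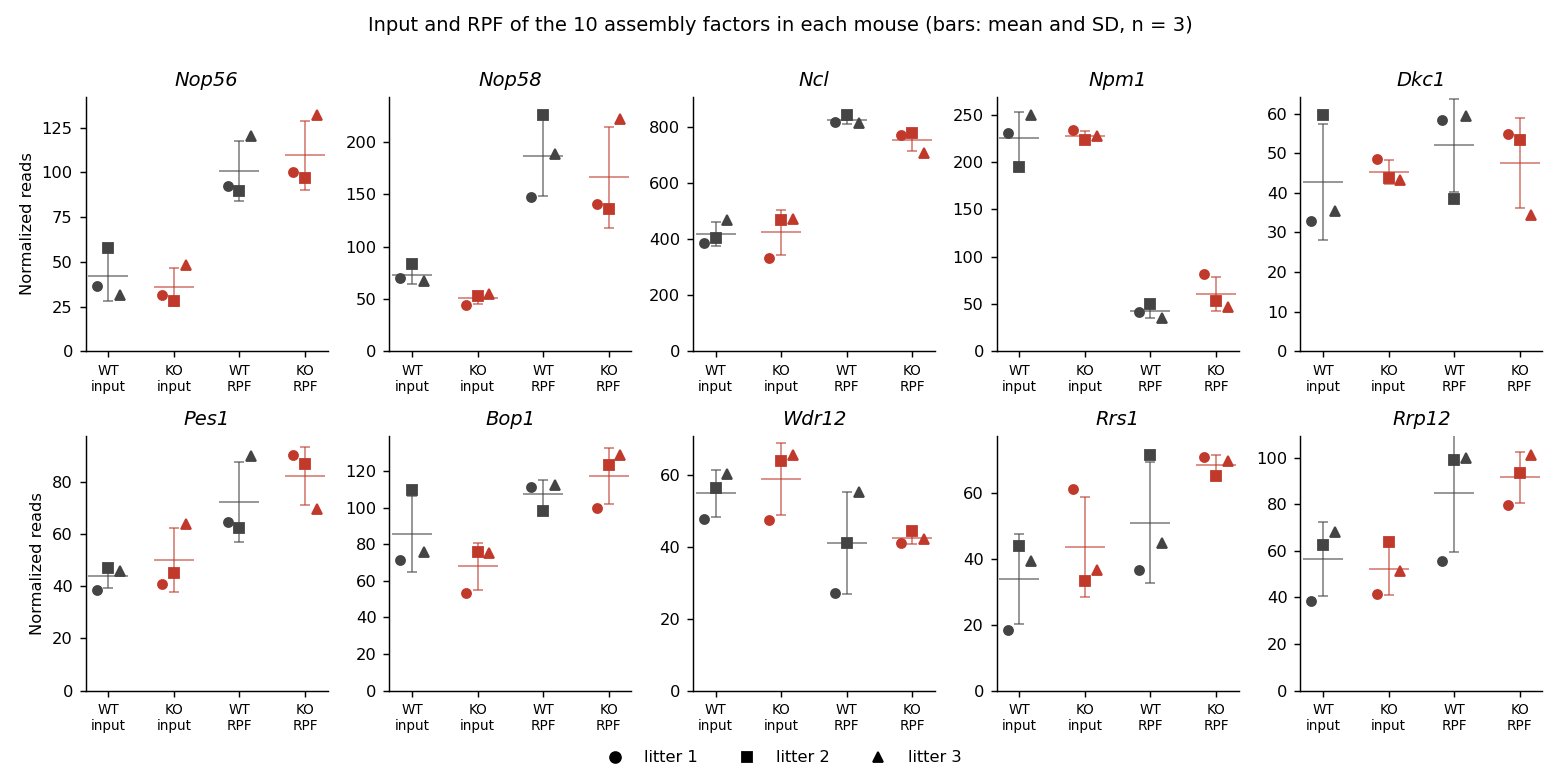
Normalized reads (y axis, from 0, scaled per gene) of the 10 assembly factors in input and RPF of WT (grey) and KO (red) mice, with 1 point a mouse, symbols by litter, and mean and SD as bars (n = 3). KO lies below WT without overlap for Nop58 in input and Ncl in RPF, and Npm1 is the gene whose RPF lies far below its input in every mouse.

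Npm1 stood out for an RPF that was low relative to its input in both genotypes, while its RPF level itself, per kb of coding sequence, lay at percentile 52.9. RPF over input was 0.177, 0.259 and 0.143 in WT and 0.348, 0.240 and 0.206 in KO, and this placed the gene at percentile 3.26 of the 8994 genes, with a log2 ratio of -2.88 to -1.60 relative to the median gene in the 6 mice. For Nop58 and Nop56 the percentiles were 95 and 94.3, with mean log2 ratios of 1.43 and 1.39 relative to the median gene, and for Ncl the percentile was 81.6. Pes1, Rrp12, Rrs1 and Bop1 lay at percentiles 75, 74.4, 73.1 and 69.4, Dkc1 at 53.8 and Wdr12 at 30.3. This ratio is on the scale of the deposited values and holds no term for length. Input was counted over all exons, and the percentiles were not adjusted for the exon and coding lengths of the genes. These lengths are 11955 and 1269 bases for Wdr12 and 4099 and 1740 bases for Nop56. With input per kb of exon and RPF per kb of coding sequence, Wdr12 had 1.18 and 6.98, and Nop56 2.36 and 12.8. The order of genes by this ratio thus holds only for values without length.

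The low ratio of Npm1 went together with copies of its coding sequence. Each coding sequence was taken apart into windows of 28 bases, close to the length of a footprint, and each window was searched on both strands of the mouse chromosomes (GRCm38.p6) outside the gene itself. For Npm1, 746 of 849 windows (87.9%) had an exact match elsewhere, at 20 other places, of which 8 held 100 or more windows and overlapped genes annotated as processed pseudogenes. Among these, Gm9118 at chr10:56497363-56498095 held 58.1% of the windows and Gm5611 at chr9:17030064-17030889 held 49.6%. The share was 55.7% for Pes1, 54.9% for Wdr12, 41.2% for Nop56, 34.7% for Rrs1, 16% for Ncl and 7.60% for Dkc1, and it was 0.443% for Nop58, 0.181% for Rrp12 and 0% for Bop1. The authors mapped RPF with a single allowed location and kept only uniquely mapped read pairs in input. The part of the copies in the levels and in the Npm1 difference was not tested.

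The sequences below, from GENCODE M21 transcripts of mm10, are for each gene with a near-identical copy the window of 28 coding bases with the most exact matches outside the gene, among windows that lie in a single exon, with their positions counted from the A of the start codon. Windows with no match elsewhere are given for Npm1, Nop58 and Bop1 for contrast, and in all of them lower case is used throughout since every base counts for the match.
Npm1, bases 460 to 487, 7 matches elsewhere, chr11:33159968-33159995, - strand: aaaaaagtaaaacttgatgaagatgatg
Nop56, bases 1638 to 1665, 8 matches, chr2:130279118-130279145, + strand: ccctaagaagaaaaggaaattttctgag
Pes1, bases 59 to 86, 2 matches, chr11:3968297-3968324, + strand: gaaacaaggccaggaagaagctgcagct
Wdr12, bases 284 to 311, 3 matches, chr1:60089279-60089306, - strand: agcagtgcatgttccatgatgactggat
Rrs1, bases 279 to 306, 3 matches, chr1:9545802-9545829, + strand: ggagcccgccactcgcctgccccgcgag
Ncl, bases 1088 to 1115, 2 matches, chr1:86355076-86355103, - strand: aaaaggccttggagctcactggtttaaa
Npm1, bases 1 to 28, 0 matches, chr11:33162952-33162979, - strand: atggaagactcgatggatatggacatga
Nop58, bases 1 to 28, 0 matches, chr1:59685182-59685209, + strand: atgttggtcctgtttgaaacgtccgttg
Bop1, bases 1 to 28, 0 matches, chr15:76477194-76477221, - strand: atggcgggggcgtgtggtaagccccaca

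The PeBoW proteins hold each other in 1 complex, and none of their transcripts differed between genotypes past the threshold in any assay. Bop1 (ENSMUSG00000022557, - strand, chr15:76452989-76477277), the scaffold of the complex, had input values of 71.5, 109.7 and 76.1 in WT and 53.3, 75.8 and 75.2 in KO, and RPF values of 112, 98.1 and 112 in WT and 100.1, 124 and 129 in KO. The KO mouse had the lower input in 3 of 3 litters, and the ranges overlapped in both assays. RPF over input was 1.56, 0.894 and 1.48 in WT and 1.88, 1.63 and 1.72 in KO, so all KO mice lay above all WT mice. The log2 TE difference was 0.45 (SE 0.29, limma adjusted p = 0.998), or 1.36-fold with a 95% interval from 0.894 to 2.07, and it was 0.19 without WT mouse 2, the mouse with the low ratio. Bop1 was the 1 gene of the 10 without overlap in TE, where 13.4% of all genes had no overlap and 6.09% had KO above WT.

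Pes1 (ENSMUSG00000020430, + strand, chr11:3963975-3980004), the homologue of pescadillo, had input values of 38.5, 47.0 and 45.9 in WT and 40.8, 45.2 and 64.0 in KO, and RPF values of 64.5, 62.3 and 89.7 in WT and 90.4, 86.7 and 69.8 in KO. KO was higher in RPF in litters 1 and 2 by 0.48 and 0.47 on the log2 scale and lower in litter 3. The log2 difference in RPF was 0.20 (SE 0.23, limma adjusted p = 0.753). Wdr12 (ENSMUSG00000026019, - strand, chr1:60069785-60098645), the WD-repeat subunit, had input values of 47.7, 56.4 and 60.3 in WT and 47.4, 63.8 and 65.6 in KO. Its RPF values were 27, 41.0 and 55.2 in WT and 41.0, 44.3 and 42.0 in KO, with all KO mice inside the WT range and a log2 difference of 0.10 (SE 0.25, limma adjusted p = 0.893).

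The PeBoW transcripts were compared with each other by their footprints. Bop1 to Pes1 in RPF reads per kb of coding sequence was 0.890 to 1.49 over the 6 mice, with 1.22 ± 0.195 in WT and 1.17 ± 0.299 in KO (SD, n = 3). Wdr12 was the lowest of the complex in 6 of 6 mice, with ratios of Bop1 to Wdr12 of 1.18 to 2.39 and of Pes1 to Wdr12 of 1.09 to 1.72. The genotypes overlapped in each of these RPF ratios. Pes1 shares 55.7% and Wdr12 54.9% of coding windows with other places of the genome, and Bop1 0%. The part of these copies in the ratios was not tested. In input the place of Wdr12 depended on the length used. Per kb of exon, Bop1 to Wdr12 was 5.10 to 7.86 in WT and 4.55 to 4.801 in KO. Per kb of coding sequence it was 0.650 to 1.12 over the 6 mice and above 1 in 1 of 6, and Pes1 to Wdr12 was 0.510 to 0.702. The genotypes did not overlap in the input ratio of Bop1 to Wdr12. How often such ratios of other genes do not overlap is not given here, and the difference was not tested.

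Rrs1 (ENSMUSG00000061024, + strand, chr1:9545408-9547455), which works with the 5S RNP, had the largest error of the 10 in input (SE 0.35 of a log2 difference of 0.43). Its values were 18.3, 43.9 and 39.3 in WT, on 10 to 30 reads, and 61.2, 33.2 and 36.8 in KO, and only litter 1 had the higher value in KO. In RPF the 3 KO mice lay close together at 70.9, 65.2 and 69.8, while the WT mice lay at 36.6, 71.7 and 44.9. WT mouse 2 lay above all KO mice, so the ranges overlapped, and the log2 difference was 0.48 (SE 0.32, limma adjusted p = 0.549), or 0.15 with the base composition trend removed. The 95% interval of the fold difference, 0.870 to 2.22, reached the highest of the 10 genes in RPF.

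Rrp12 (ENSMUSG00000035049, - strand, chr19:41862851-41896173), the export factor, had input values of 38.5, 62.7 and 68.2 in WT and 41.4, 63.8 and 51.2 in KO. Its RPF values were 55.8, 99.0 and 100.1 in WT and 79.9, 93.4 and 101 in KO. In both genotypes the mouse of litter 1 was the lowest in both assays, and the log2 differences of -0.13 in input (SE 0.27), 0.15 in RPF (SE 0.26, limma adjusted p = 0.848) and 0.24 in TE (SE 0.37) were below their errors.

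Ncl led the 10 genes by level in RPF and Npm1 in input. In RPF reads per kb of coding sequence per 1000000 reads of the table, Ncl had 78.1 ± 3.82, Nop58 23.2 ± 5.74 and Nop56 12.8 ± 2.68 (SD over 6 mice), and both steps in this order were free of overlap and held in 6 of 6 mice. Below them Npm1, Rrs1, Bop1, Pes1, Wdr12, Dkc1 and Rrp12 had 12.4, 11.6, 10.8, 9.26, 6.98, 6.85 and 4.82, and each neighbour in this order overlapped the next. In input per kb of exon, Npm1 had 21.3 ± 2.90, Ncl 10.3 ± 1.10, Bop1 6.47 and Rrs1 4.87, followed by Pes1 at 3.86, Rrp12 at 3.13, Dkc1 at 2.69, Nop56 at 2.36, Nop58 at 1.43 and Wdr12 at 1.18. Only the step from Npm1 to Ncl was free of overlap in input.

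The lower end of the input order changed with the length used. The exons counted for Wdr12, Nop58 and Ncl span 11955, 10758 and 10188 bases, while their coding sequences span 1269, 1608 and 2121 bases. Per kb of transcript Nop58 had 1.62 and Wdr12 1.41, still at places 9 and 10. Per kb of coding sequence, however, the input of Wdr12 was 11.2 and that of Nop58 9.56, which put them at places 3 and 4 behind Npm1 at 64.8 and Ncl at 49.4.

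**Figure D3:**
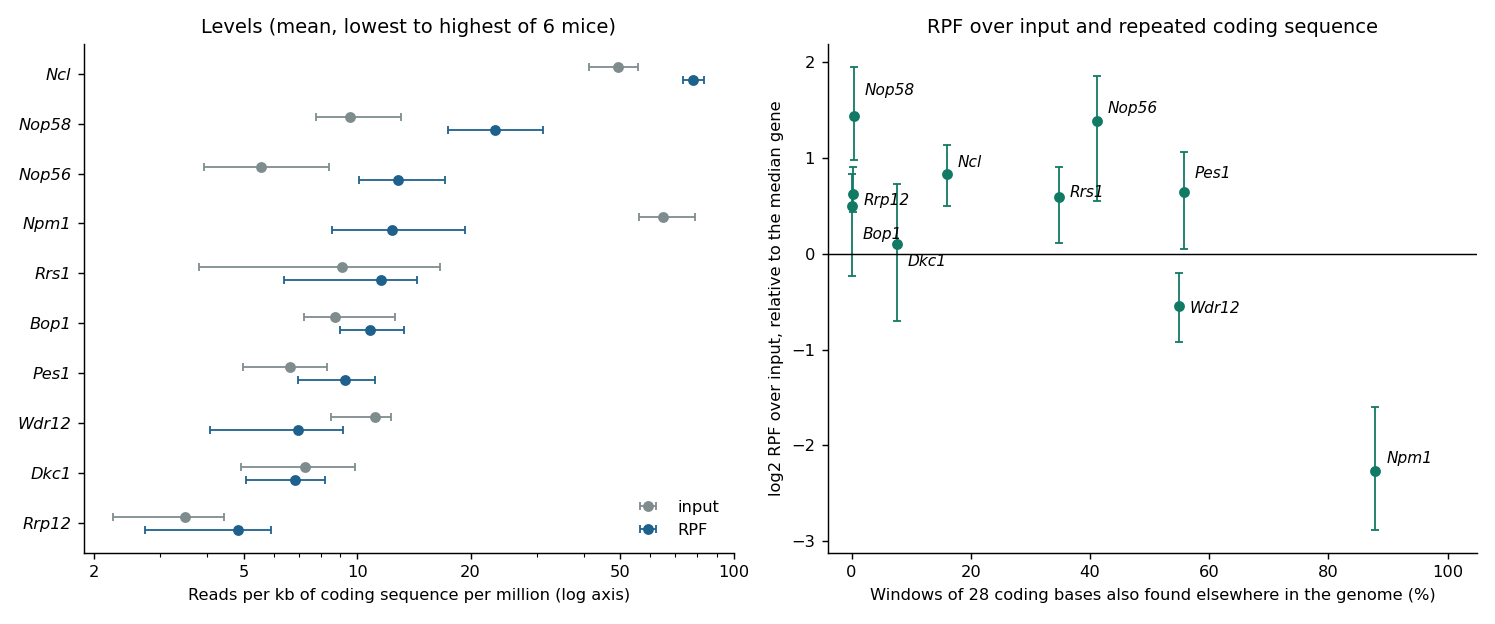
Left, input and RPF of the 10 genes in reads per kb of coding sequence per 1000000 reads (log axis), as the mean with the lowest and highest of 6 mice. Right, log2 of RPF over input relative to the median gene (y axis, mean with lowest and highest of 6 mice) against the share of 28-base coding windows found elsewhere in the genome (x axis), where Npm1 has both the highest share, 87.9%, and the lowest ratio. The ratio on the right holds no term for length.

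The 10 genes did not share a base composition. The GC content of their coding sequences ran from 40.8% in Nop58 to 64.2% in Rrs1, with a median of 48.4%, beside a median of 52.6% for all genes tested. Across 8986 genes the RPF difference between genotypes was the larger the higher the GC content, with a Spearman correlation of 0.455 over genes that share the same 6 RPF libraries. With that trend removed, the RPF differences of Nop58, Ncl and Dkc1 turned from negative to 0.09, 0.06 and 0.05, and that of Bop1 turned to -0.04. Then 9 of 10 genes lay above 0, beside 47.2% of all genes, whose median was -0.02. Apart from Npm1, each of the 10 differences was smaller than its SE. None of the 10 passed under that setting either, where 0.111% of all genes did, or with the litter block added, where 0.779% did, and Npm1 remained the gene of the 10 with the smallest p.

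A feature common to the snoRNP proteins and to nucleolin was that their introns hold snoRNA genes. Nop56 holds 5 annotated snoRNA genes, among them Snord110 and Snord57, Nop58 holds 4, among them Snord70 and Snord11, Ncl holds 3, among them Snora75 and Snord82, and Dkc1 holds 1. These had 0 to 5 counts per input library. The other 6 genes hold none. Nop56, Dkc1, Pes1, Bop1 and Wdr12 each overlap a gene on the opposite strand, Idh3b, Mpp1, 4930556J24Rik, Mroh1 with Scx, and Carf. Input was counted with strand, so these do not mix there, while the strand setting for RPF is not given in the sources used here.

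The promoters were searched for the E-box CACGTG, the site of MYC and related factors, since several of these genes are textbook targets of MYC. RefSeq promoters of GRCm38.p6, 250 bases before to 50 bases after the start, were matched for 6 of the 10 genes, and those of Npm1, Bop1, Rrs1 and Rrp12 were not. The motif, which reads the same on both strands, was in 1 of these 6, Pes1, and in 7.15% of all 32851 promoters. The 30 bases around it are shown with the motif in capitals, which starts at base 3 from the transcription start.
Pes1, GRCm38.p6, chr11:3963965-3963994, + strand: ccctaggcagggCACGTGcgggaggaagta

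The other genes of ribosome biogenesis were described with a list of 133 genes that leaves out the 10. In input 0 of 128 tested genes passed in edgeR, and 1 had an unadjusted p under 0.05, against 3.46% of all genes. DESeq2 passed 0 of 133 and had 2 at an unadjusted p under 0.05, against 0.99% of all its genes. The median log2 difference was 0.01, with 69 genes above and 59 below 0, where 50% of all genes lay above 0. The 3 smallest p-values in input belonged to Tcof1, the treacle factor of Pol I transcription, with values of 22, 15.7 and 15.7 in WT and 23.7, 35.9 and 35.2 in KO (log2 difference 0.83, SE 0.36, edgeR adjusted p = 0.999), and to Mak16 and Gnl3 of the 60S precursor, with log2 differences of -0.45 and -0.50 and the same adjusted p.

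In RPF 0 of 126 list genes passed without a litter term, and 17 of 126 had an unadjusted p under 0.05, against the 13.4% of all genes given above. The median was -0.07, with 49 genes above and 77 below 0, beside the median of 0.12 of the 10 assembly factors, a difference that was not tested. Over all genes tested the median was -0.03, and 46% lay above 0. With the base composition trend removed the list median was -0.04, with 57 genes above and 69 below 0, beside 0.12 for the 10. The 3 genes with the smallest p were factors of the 60S subunit. Nop53 had RPF values of 135, 180.02 and 198 in WT and 248, 256.3 and 292 in KO, without overlap (log2 difference 0.65, SE 0.18, limma adjusted p = 0.107). Nmd3, the export adaptor of the large subunit, had 164, 171 and 154 in WT and 113, 89.7 and 101 in KO, also without overlap (log2 difference -0.69, SE 0.20, limma adjusted p = 0.127). Of all 8994 genes, 19.8% had no overlap in RPF. Nop53 and Nmd3 were named for their small p, so their lack of overlap adds no separate evidence.

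With the litter as a block, 2 of the 126 genes passed in RPF, against 3.26% of all genes. They were Nop53, which rose (limma adjusted p = 0.0137), and Nmd3, which fell (limma adjusted p = 0.0476). Over this and the other fits their adjusted p was 0.0137 to 0.422 and 0.0476 to 0.481, and neither passed with the base composition trend removed. Gtpbp4, a GTPase of the 60S precursor, had 302, 341 and 209 in WT and 238, 172 and 154 in KO (log2 difference -0.59, SE 0.20, limma adjusted p = 0.185). None of the 10 assembly factors passed with the block.

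In TE 0 of the 126 list genes passed in limma and 0 in edgeR on whole reads. At an unadjusted p under 0.05 there were 8 and 6, against 4.7% and 4.67% of all genes. The median was -0.08, with 57 genes above and 69 below 0, where 48.7% of all genes lay above 0. The 3 smallest p-values were those of Surf6 (log2 difference 1.03, SE 0.35), Ddx18 (-1.59, SE 0.55) and Nol10 (-1.17, SE 0.47), and limma's adjusted p was 0.998 for each. For Ddx18, 85.4% of coding windows had a match elsewhere, and its RPF rested on 9 to 31 reads per library. By role, the median RPF difference of the list genes was -0.07 for 36 genes of the SSU processome, -0.08 for 55 genes of 60S assembly, -0.25 for 8 genes of 40S maturation and -0.06 for 13 genes of Pol I transcription, and it was -0.08 for 4 box C/D genes. It was 0.16 for 5 H/ACA genes and 0.19 for 3 nucleolar chaperones, and the single genes left in the PeBoW and 5S RNP groups had 0.0091 and -0.51. With the base composition trend removed the 40S median was -0.08 and that of Pol I transcription was 0.02.

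**Figure D4:**
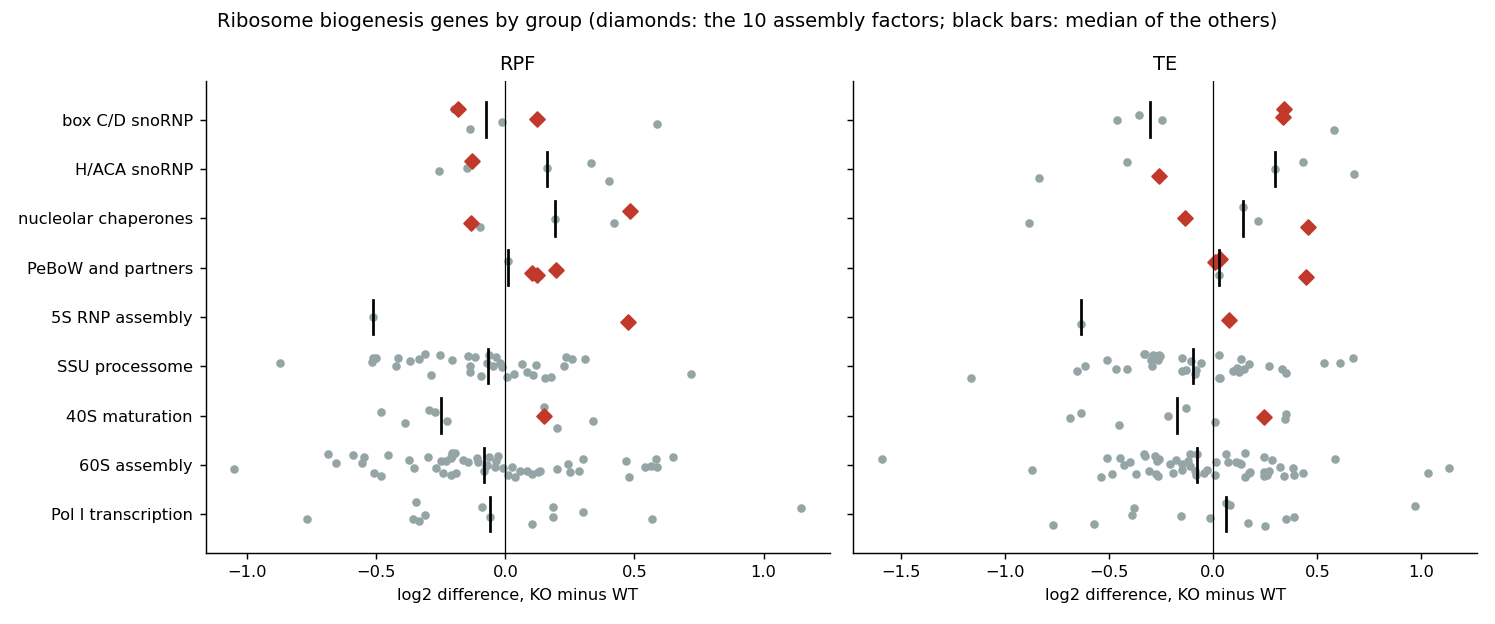
Log2 differences between KO and WT (x axis) in RPF and TE of the ribosome biogenesis genes, in rows by role, with the 10 assembly factors as diamonds, the other genes as grey points and the median of the others as black bars. The diamonds lie within the spread of the other genes of the larger groups, between -0.18 and 0.48 in RPF and between -0.26 and 0.45 in TE.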

How the data were processed

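Input and RPF libraries of 3 WT and 3 KO livers were grouped by the sample labels. The deposited input counts are whole read pairs per gene, and the table of the count file also holds exon lengths. Per the labels and the study's methods, the authors aligned input to mm10 with STAR 2.7.3a, kept unique alignments and counted exons by strand with featureCounts (1.6.0 per the labels, 2.0.3 in the file header), and mapped RPF of 25 to 34 bases with RiboToolkit at 2 mismatches, 1 location and no removal of duplicates. The deposited TE table holds signal values, which are reads divided by 1 factor per library: 100% of values in each of 12 columns were whole reads within 0.01, and input reads equalled the counts in 100% of genes. The origin of these factors and of the gene filter is not given in the sources used here. Each gene of that table has at least 1 read in every column. The authors' log2 fold changes and p-values in it were not used. No column lacked a sample (0).

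Input was tested with edgeR 4.0.16 in R 4.3.3 (TMM, filterByExpr, robust quasi-likelihood, SE taken as the log2 difference over the square root of F), and RPF and TE with limma 3.58.1 (trend and robust) on log2(value + 1) in 1 model of 4 groups over genes whose mean reached 10 in input and in RPF; this scale understates differences of low genes. RPF and TE were planned as normalized values, and edgeR was also run on the recovered reads. P-values are two-sided and adjusted by Benjamini-Hochberg over all genes tested. Levels per kb used reads per 1000000 of the table. Alternatives were RLE factors, DESeq2 1.42.0, other filters and pseudocounts (0.1 and 5), centred columns, RPF columns alone, an adjusted p of 0.1, removal of a spline trend with coding GC content (4 degrees of freedom), blocks of litter or mouse, and leaving out each mouse. The labels call equal numbers littermates, so mice are paired: littermates' deviations from group means correlated over genes with 0.0816, 0.127 and 0.1 in input (litters 1 to 3) and 0.242, 0.144 and 0.195 in RPF. The study states no litter term, so the block is given where it changes a call.

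Genes named were the 10 members, Mettl5 and, of the ribosome biogenesis list, genes past an adjusted p of 0.05 or else the 3 with the smallest p in each comparison. Members, lists and tests were chosen with earlier results of these data known. On simulated data with known changes, 2-fold changes were recovered in 46.4% of cases in input (9936 genes run), 51% in RPF and 8% in TE (8868 genes run each), and 4-fold changes in 98.9%, 100% and 86.5%. Unchanged genes that passed numbered 6 in input, 8 in RPF and 7 in TE. The simulation gave every gene the same dispersion, with no litter effect and no trend with GC content. Its rates therefore need not hold for the real libraries.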

Additional observations from a re-analysis of the deposited data

How the results depend on the processing

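The counts of assembly factors past the threshold were 0 in input, RPF and TE under every alternative run, the replicate block of litter and the fits without each mouse included. The count of other ribosome biogenesis genes in RPF was 0, and 2 (Nop53 and Nmd3) with the replicate block. It was 0 to 1 when each mouse was left out, with Gtpbp4 passing without KO mouse 1 (limma adjusted p = 0.0464). The share of all genes that passed without that mouse is not given here, so this call is not read as particular to Gtpbp4. The block changed no other call of these genes. Without each mouse, the median difference of the 10 was -0.0271 to 0.0765 in input, 0.0157 to 0.272 in RPF and 0.0644 to 0.22 in TE.

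No single value of the 10 assembly factors passed in any setting run, and several turned sign. With the GC trend removed, with or without the replicate block, the RPF differences turned to 0.0922 for Nop58, 0.0625 for Ncl, 0.0549 for Dkc1 and -0.0441 for Bop1, and the TE differences to 0.0192 for Ncl and -0.21 for Rrs1. The TE difference of Wdr12 was -0.0037 with centred columns and -0.0522 in edgeR on whole reads. Signs also turned without 1 mouse, with ranges in input of -0.44 to 0.0780 (Nop56), -0.0456 to 0.18 (Ncl), -0.0516 to 0.13 (Npm1), -0.0157 to 0.43 (Dkc1), -0.0087 to 0.32 (Pes1) and -0.33 to 0.0329 (Rrp12), in RPF of -0.0175 to 0.25 (Nop56), -0.33 to 0.0844 (Dkc1), -0.16 to 0.34 (Wdr12) and -0.13 to 0.29 (Rrp12), and in TE of -0.17 to 0.33 (Pes1), -0.16 to 0.18 (Wdr12) and -0.14 to 0.32 (Rrs1). The cause was not tested. Filters at a mean of 50 left out the assembly factors below it. The 10 had 10 to 504 reads per input library. In the simulated data, with the same dispersion for every gene and no litter effect, 8% of 2-fold differences in TE were recovered.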

Other observations

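Repeated coding sequence was also measured for the other genes of the ribosome biogenesis list. Of 136 list genes tested in RPF, the 10 included, 5 had an exact match elsewhere for at least 75% of their 28-base coding windows. Snu13 (100%), Fbl (91.8%) and Nsa2 (91.6%) had higher shares than these 5 but did not pass the filter on low values. The ratios below thus leave out the most repeated genes of the list. The median log2 ratio of RPF over input of the 5 tested genes was -1.07 relative to the median gene, with a range of -2.26 (Npm1) to 0.76, and that of the other 131 genes was 0.54. Over the 136 genes, which share the same 12 libraries, the Spearman correlation between the share of repeated windows and the ratio was -0.22, given as a description. The ratio holds no term for length here either.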
